A study of Mus musculus with 12 samples.

Results

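The 83 genes described here code for the proteins of the cytosolic ribosome in mouse. They are the protein-coding genes whose symbols begin with Rpl or Rps and a digit, together with Rplp0, Rplp1, Rplp2 and Rpsa, and without the Rps6k kinases, that had over 1 CPM (count per 1000000 counts) in 3 or more of the 12 libraries. They make up 83 of the 55385 genes in the count table, and all 83 were among the 15905 genes tested. The rule used a level and no comparison. Of the 83 genes, 46 code for proteins of the large subunit and 31 for proteins of the small subunit. The other 6 are the paralogs Rpl22l1, Rpl36al, Rpl7l1 and Rps27l, the intronless copy Rps27rt, and Rps19bp1, which is matched by its symbol but codes for a protein that binds a ribosomal protein. The member nearest the threshold was Rps27rt, which passed it in 5 libraries. Rpl9-ps6 missed it, with 2 libraries over the threshold and at most 1.12 CPM.

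A ribosome is built from ribosomal RNA and about equal numbers of copies of each ribosomal protein, so cells keep the messages of these genes in step. Their transcripts are short and abundant and most begin with a C followed by a run of pyrimidines, the 5′ terminal oligopyrimidine (TOP) tract, through which mTOR signalling sets how much of the message is translated. In neurons part of this mRNA is carried into dendrites and axons, and local protein synthesis there has been tied to lasting synaptic change in the hippocampus.

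The study measured hippocampal RNA of adult mice in 4 genotypes, with 3 libraries each. WT mice carried neither change. Kcnip3 KO mice lack Kcnip3 (labelled -/-), the gene of the calcium-binding protein DREAM, also called calsenilin, which represses transcription and binds potassium channels. 5xFAD mice carry human transgenes with mutations of familial Alzheimer's disease, driven by Thy1 regulatory sequences that act mainly in neurons, and Kcnip3 KO-5xFAD mice carry those transgenes on the Kcnip3 knockout. The labels give no age beyond adult, no sex, and no word on whether the 3 libraries of a genotype came from 3 mice, so the p-values below measure the spread between these libraries. RNA came from the hippocampus of one hemisphere, as bulk tissue, in which fewer cells of a type and less RNA per cell cannot be told apart.

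The libraries held 7664407 to 11310714 counts. Kcnip3 itself stood at 158 to 162 CPM (WT), 138 to 156 CPM (5xFAD), 68.7 to 84.9 CPM (Kcnip3 KO-5xFAD) and 63.4 to 125 CPM (Kcnip3 KO), where replicate 3 stood at 125 CPM against 71.4 and 63.4 CPM and so lay nearer to the 5xFAD libraries than to the other knockout libraries. Thy1, whose reads include those of the transgenes where their Thy1 sequences are counted, went against the label in 2 libraries. It stood at 2277 CPM in the library labelled WT 3, against 747 and 887 CPM in the other WT libraries, and at 926 CPM in the library labelled Kcnip3 KO-5xFAD 2, against 2592 and 3381 CPM in the others of that label. Trem2, a receptor of microglia that gather at amyloid plaques, split the same way, with 70.1 CPM in WT 3 against 22.3 and 22.9 CPM, and 26.2 CPM in Kcnip3 KO-5xFAD 2 against 128 and 163 CPM. Groups below are those of the labels, which for these 3 libraries these genes do not bear out. Reads of Kcnip3 also remained in every library labelled Kcnip3 KO or Kcnip3 KO-5xFAD, and their source was not tested. The term "transgene comparison" means libraries labelled 5xFAD or Kcnip3 KO-5xFAD against those labelled WT or Kcnip3 KO. The members' median in each comparison is also given without WT 3 and Kcnip3 KO-5xFAD 2, and in those with Kcnip3 KO also without Kcnip3 KO 3. Sums, overlaps of libraries, other gene lists and cell type markers are given with all labelled libraries only. Neuronal, astrocyte, oligodendrocyte and hippocampal markers were detected in every library.

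Most members were expressed at high levels per length of transcript. The median was 335 CPM per kb, against 6.53 CPM per kb over all genes tested. The highest level per kb was that of Rplp1, an acidic protein of the stalk that recruits elongation factors, at 1740 CPM per kb. Next came 3 small-subunit genes, Rps29 at 1513, Rps15 at 1169 and Rps21 at 862 CPM per kb. The lowest were the retrocopy Rps27rt at 2.59, and the paralogs and binding protein Rpl7l1 at 17.5, Rpl36al at 23.4 and Rps19bp1 at 28.0 CPM per kb. Among the genes named, a copy, paralogs and a binding protein made up the lowest, and a stalk gene and small-subunit genes the highest. The large-subunit gene Rpl41 followed closely after Rps21, at 852 CPM per kb. Lengths are those of the principal transcript in the annotation, which for Rps15a (5179 bases) and Rps20 (3706 bases) is far longer than for the other members, so their levels per kb depend on that choice.

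The members were short but not GC-rich as a set. Their principal transcripts had a median length of 878 bases, against 3086 bases for the other protein-coding genes tested, and a median GC content of 51.5%, against 50.8%. Of the 83 transcripts, 77 lay in the shortest quartile of protein-coding transcripts. Only 16 lay in the highest quartile of GC, all of them also short, while 57 were short with middle GC and 7 lay in the lowest quartile of GC. The members lie on 19 chromosomes, with 14 of them on chromosome 7. Because many members have processed pseudogenes with nearly the same sequence, reads can be lost or split between copies. In 81 of the 83 principal transcripts at least 1 window of 50 bases also occurred in a transcript of a pseudogene, and the median share of windows found in any other gene, pseudogene or not, was 43.9%. The 290 pseudogenes that carry a family symbol held 0.366% to 0.470% of the members' counts, depending on the library.

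Promoters were listed in RefSeq (GRCm38.p6) for 63 of the 83 members. At the listed start of transcription, 14 of the 63 (22.2%) had a C followed by at least 4 pyrimidines, against 3.01% of 27025 genes with a listed promoter. A run of at least 8 pyrimidines beginning with C lay within 20 bases either side of the start in 47.6% of members and 14.5% of all genes. The hexamer CGGAAG, the core bound by ETS factors, was found on either strand of the 300 bases around the start in 68.3% of members and 18.8% of all genes. For GGGCGG, the core of the Sp1 box, the shares were 63.5% and 38.2%, for AAGATGG, the core bound by YY1, 15.9% and 7.28%, and for TATAAA, the TATA box, 11.1% and 15.7%. Matches of CGGAAG and AAGATGG can overlap by 3 letters, and a match is a description of the sequence only. A start that is off by a base hides a tract, so these shares depend on the listed starts.

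The stretches below show 30 bases before and 20 bases after the listed start of 5 members, 5′ to 3′ on the gene's strand, because the pyrimidine run at the start is the sequence feature that the family is known for. Capitals mark the pyrimidine run from the start onward, and Rps4x is shown as a member with no such run at its listed start. Rpl35 lies on chr2:39001580-39005624 of GRCm38, Rps6 on chr4:86854660-86857412, Rps27 on chr3:90212522-90213651, Rps27rt on chr9:114982366-114982739 and Rps4x on chrX:102184941-102189394.
Rpl35: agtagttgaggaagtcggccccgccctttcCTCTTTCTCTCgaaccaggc
Rps6: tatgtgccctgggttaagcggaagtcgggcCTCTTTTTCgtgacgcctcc
Rps27: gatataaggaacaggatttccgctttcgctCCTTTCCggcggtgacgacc
Rps27rt: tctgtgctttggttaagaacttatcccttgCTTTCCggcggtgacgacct
Rps4x: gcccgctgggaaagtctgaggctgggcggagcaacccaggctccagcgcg
The runs are 11 bases in Rpl35, 9 in Rps6 and 7 in Rps27. Rps27rt begins with 6 bases of such a run and goes on with the letters that follow the run in Rps27, while the letters before the start are its own. Of the windows in the Rps27 transcript, 98.7% were also found in Rps27rt, so counts of these genes cannot be fully separated. Rps27rt held 0.52 to 1.56 CPM and Rps27 held 159 to 304 CPM.

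The ribosomal protein genes were higher in every library labelled 5xFAD or Kcnip3 KO-5xFAD than in any library labelled WT or Kcnip3 KO. Summed over the 83 genes, the WT libraries held 22461, 24505 and 22072 CPM and the Kcnip3 KO libraries 19837, 21993 and 22371 CPM. The 5xFAD libraries held 27462, 36425 and 29869 CPM and the Kcnip3 KO-5xFAD libraries 26688, 27352 and 25384 CPM. The highest sum was that of 5xFAD 2 and the lowest that of Kcnip3 KO 1. WT 3 and Kcnip3 KO-5xFAD 2, whose Thy1 and Trem2 levels went against their labels, had members' sums on the side of their labels. As shares of all counts, before any scaling, the members took 2.03% to 3.35%.

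**Figure D1:**
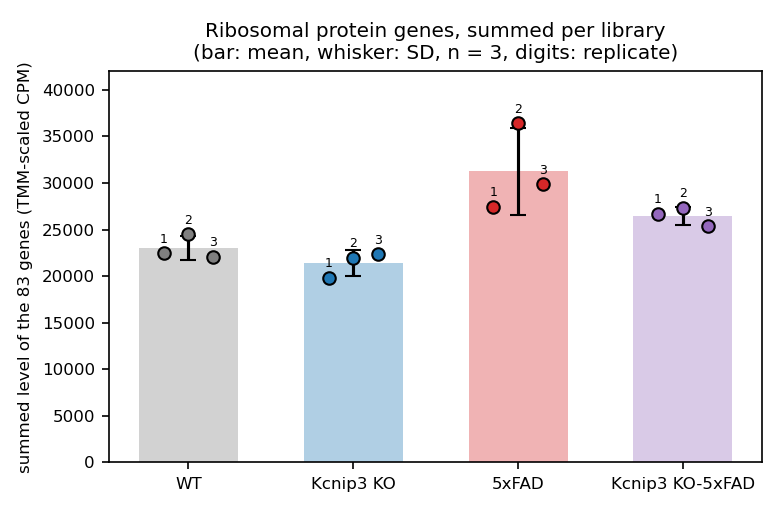
Summed level of the 83 ribosomal protein genes in each library (points, digits give the replicate) in TMM-scaled CPM, with the mean (bar) and SD (whisker) of each genotype, n = 3. The 6 libraries labelled 5xFAD or Kcnip3 KO-5xFAD sit between 25384 and 36425 CPM, all above the 6 labelled WT or Kcnip3 KO, which sit between 19837 and 24505 CPM.

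Averaged over 3 libraries with its SD, the sum was 31252 ± 4639 CPM (5xFAD) and 23012 ± 1307 CPM (WT), a ratio of 1.36. The exact two-sided permutation test gave p = 0.1, the smallest value that 3 against 3 allows. The mean was 21400 ± 1367 CPM (Kcnip3 KO), 0.930 of WT, and these groups overlapped (exact permutation p = 0.2). As a share of counts without TMM scaling, the Kcnip3 KO libraries did lie below all WT libraries (exact permutation p = 0.1). The mean was 26475 ± 1001 CPM (Kcnip3 KO-5xFAD), 0.847 of 5xFAD and 1.24 times Kcnip3 KO, with no overlap in either comparison (exact permutation p = 0.1 for each). Large-subunit and small-subunit genes moved together: the ratio of their sums stayed between 1.43 and 1.47 in all 12 libraries. Within that narrow range the ratio was lower in 5xFAD, at 1.43 in each library, than in WT, at 1.46 to 1.47 (exact permutation p = 0.1). Kcnip3 KO-5xFAD and Kcnip3 KO overlapped in this ratio (exact permutation p = 0.6). The lowest ratio of all 12 libraries was that of Kcnip3 KO 2.

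Across the 12 libraries the members kept nearly the same course. The first principal component of their log2 levels, each gene centred on its own mean, held 90.7% of the variance. The median Pearson r of a member with the mean of the others was 0.974 over the 12 libraries, and 73 of 83 members had r over 0.9. These r values describe genes counted in the same libraries and share the libraries' scaling. The members nearest the common course were Rps3, which lines the entry of the mRNA channel, and the large-subunit genes Rpl6, Rpl11 and Rpl27a, whose departures from it had an SD of 0.026 to 0.035 on the log2 scale. Among members over 10 CPM the farthest from it was Rpl22l1, a paralog of Rpl22, with an SD of 0.37 and r of -0.36. Next came Rpl7l1 (SD 0.19), a paralog that acts in ribosome assembly, the large-subunit gene Rpl21 (0.18) and the small-subunit gene Rps28 (0.15).

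**Figure D2:**
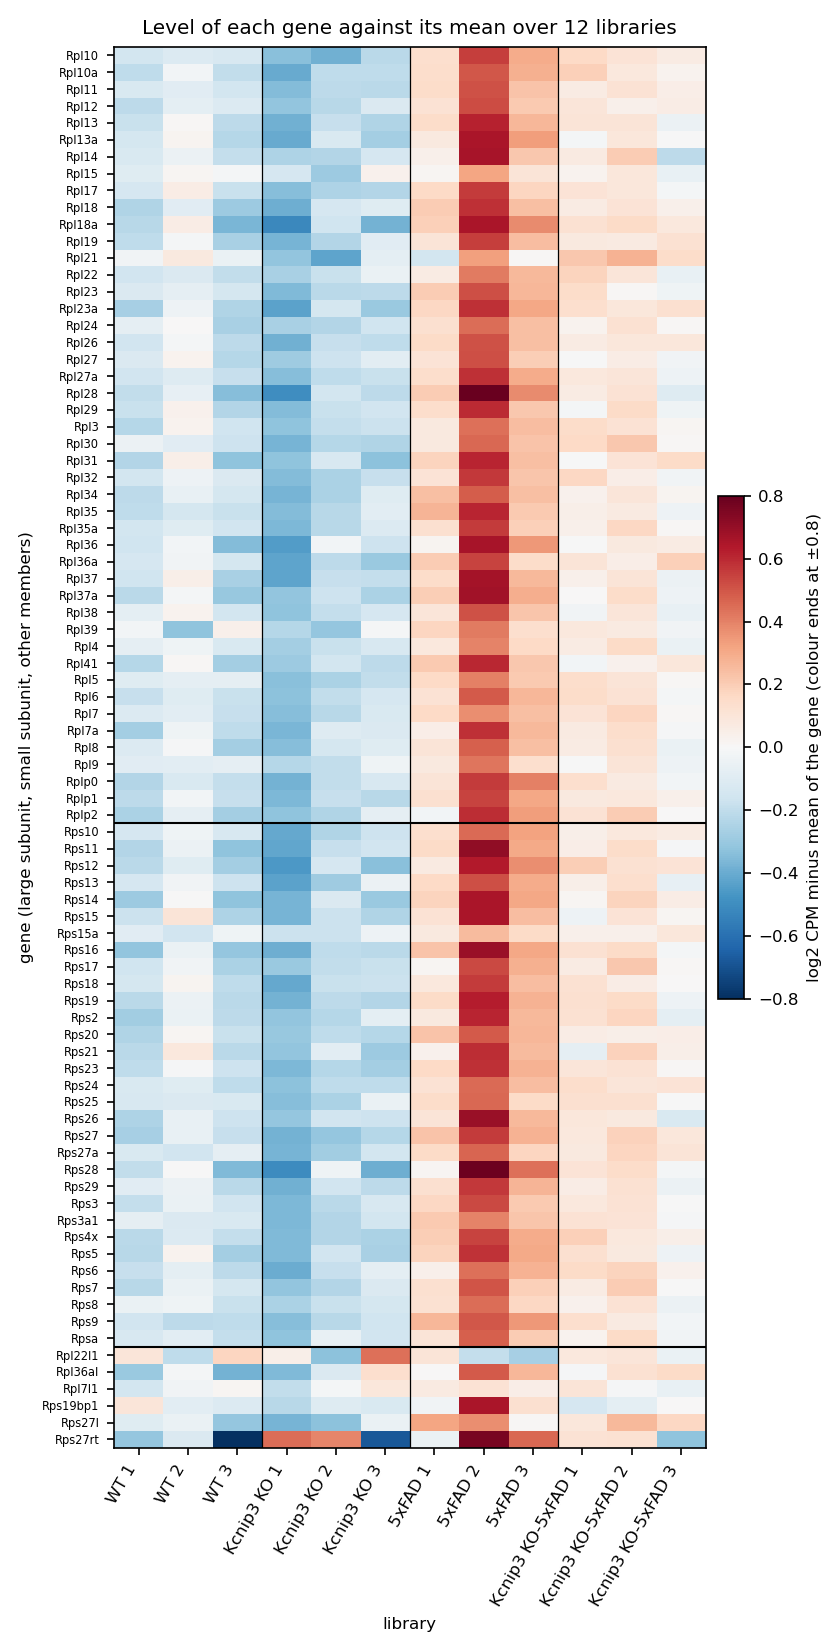
Level of each of the 83 genes (from top to bottom the large subunit, the small subunit and other members) in each of the 12 libraries (columns), as log2 CPM minus the gene's mean over the libraries, with colours ending at ±0.8. Most genes are lowest in Kcnip3 KO 1 and highest in 5xFAD 2, while Rpl22l1, Rpl7l1 and Rpl21 depart from that course.

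Between 5xFAD and WT, 46 of the 83 genes rose and 0 fell at an adjusted p under 0.05 in edgeR's quasi-likelihood test, against 1.91% of all genes that rose and 1.62% that fell. The members' median log2 fold change was 0.45, a 1.36-fold higher level, and that of all genes tested was 0.01. Of the 83 members, 82 had a positive fold change and 77 an unadjusted p under 0.05, against 25.3% of all genes under 0.05. In 79 members every 5xFAD library exceeded every WT library, against 13.7% of all genes. Of the large-subunit genes 25 of 46 rose, with a median log2 fold change of 0.45, and of the small-subunit genes 21 of 31, also with a median of 0.45. None of the 6 paralogs and other members passed the test, 2 of them had an unadjusted p under 0.05, and their median was 0.35.

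Among small-subunit genes the smallest adjusted p was that of Rps9 (chr7:3703993-3706897 of GRCm38), whose protein joins early in the assembly of the subunit. Rps9 stood at 293, 282 and 284 CPM (WT), 258, 279.8 and 292 CPM (Kcnip3 KO), 391, 459 and 414 CPM (5xFAD), and 358, 342 and 321 CPM (Kcnip3 KO-5xFAD). All libraries labelled 5xFAD or Kcnip3 KO-5xFAD lay above all those labelled WT or Kcnip3 KO, and every Kcnip3 KO-5xFAD library lay below every 5xFAD library. The log2 fold change of 5xFAD against WT was 0.56 ± 0.09 (SE, edgeR adjusted p = 0.0173).

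Rps4x, the X-linked form of its small-subunit protein, stood at 354, 380.5 and 360.5 CPM (WT) and at 472, 597 and 505 CPM (5xFAD). Its Kcnip3 KO libraries held 322, 349 and 345 CPM and its Kcnip3 KO-5xFAD libraries 469.6, 435 and 425 CPM. Neither 5xFAD and WT nor Kcnip3 KO-5xFAD and Kcnip3 KO overlapped, and the log2 fold change of 5xFAD against WT was 0.52 ± 0.10 (edgeR adjusted p = 0.0233). Rps27, a zinc-binding protein of the small subunit, held 172, 198 and 182 CPM (WT) and 242, 304 and 250.3 CPM (5xFAD), with no overlap, a log2 fold change of 0.53 ± 0.10 and an edgeR adjusted p of 0.0247. Rps16, whose tail reaches the tRNA in the decoding centre, held 142, 170.4 and 143 CPM (WT) and 207, 286 and 219 CPM (5xFAD). The Rps16 groups did not overlap, and the log2 fold change was 0.64 ± 0.12 (edgeR adjusted p = 0.0247).

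In the large subunit the smallest adjusted p values were those of Rpl35 and Rplp0. Rpl35, which sits by the exit of the tunnel through which the new chain leaves, held 163, 171 and 166 CPM (WT), 148, 161 and 177 CPM (Kcnip3 KO), 227, 287 and 217 CPM (5xFAD), and 194, 198 and 183 CPM (Kcnip3 KO-5xFAD). The 5xFAD libraries were above all others, and the log2 fold change of Rpl35 against WT was 0.55 ± 0.11 (edgeR adjusted p = 0.0269). Rplp0 (chr5:115559467-115563727 of GRCm38), the base of the stalk, held 286, 308 and 294 CPM (WT), 258, 293 and 308 CPM (Kcnip3 KO), 361, 494 and 444 CPM (5xFAD), and 369, 354 and 330.4 CPM (Kcnip3 KO-5xFAD). Its libraries labelled 5xFAD or Kcnip3 KO-5xFAD were all above the others, and the log2 fold change of 5xFAD against WT was 0.55 ± 0.11 (edgeR adjusted p = 0.0300).

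The other stalk genes rose as well. Rplp1 held 738, 841 and 753 CPM (WT) and 936, 1247 and 1058 CPM (5xFAD), a log2 fold change of 0.47 ± 0.11 (edgeR adjusted p = 0.0378). Rplp2 held 199.8, 226 and 197 CPM (WT) and 234, 359 and 299.9 CPM (5xFAD), a log2 fold change of 0.52 ± 0.13 (edgeR adjusted p = 0.0489). In Rplp2 the lowest 5xFAD library, 5xFAD 1, was close to the highest WT library, WT 2, and the groups did not overlap. In the Kcnip3 KO libraries Rplp1 stood at 667, 752 and 734 CPM and Rplp2 at 189.9, 202 and 226 CPM, and in the Kcnip3 KO-5xFAD libraries at 904, 907 and 881 CPM and at 258, 274 and 238 CPM.

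Rpsa, the small-subunit protein also known as the laminin receptor, did not pass the test. It held 602, 620.0 and 577 CPM (WT), 526, 633 and 593 CPM (Kcnip3 KO), 709, 916 and 759 CPM (5xFAD), and 672, 733 and 646 CPM (Kcnip3 KO-5xFAD). The 5xFAD and WT libraries of Rpsa did not overlap, with a log2 fold change of 0.41 ± 0.11 (edgeR adjusted p = 0.0563). Many members lay close to the threshold in this way, and the adjusted p values of the members from Rpl5 to Rps15, ranked by p, ran from 0.0504 to 0.0677.

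The 4 members that left the common course the most did not pass the test. Rps28 held 132, 151 and 119 CPM (WT) and 153, 261 and 206 CPM (5xFAD), which did not overlap, with a log2 fold change of 0.62 ± 0.17 (edgeR adjusted p = 0.0573), above the members' median. Rpl22l1 was the only member with a lower level in 5xFAD, at 66.4, 54.2 and 51.2 CPM against 66.0, 53.6 and 69.5 CPM (WT). These groups overlapped, with a log2 fold change of -0.14 ± 0.17 (edgeR adjusted p = 0.624). Rpl22l1 ranged from 49.2 to 83.7 CPM (Kcnip3 KO) and from 59.4 to 65.9 CPM (Kcnip3 KO-5xFAD), so the Kcnip3 KO libraries alone spanned the whole range of this gene. Rpl21 held 482, 519 and 475 CPM (WT) and 444, 617 and 496 CPM (5xFAD), which overlapped, with a log2 fold change of 0.08 ± 0.12 (edgeR adjusted p = 0.725). Rpl21 has many pseudogenes, and 82 other genes shared windows of its transcript. Rpl7l1 held 41.0, 44.6 and 46.1 CPM (WT) and 47.9, 49.2 and 47.2 CPM (5xFAD), a log2 fold change of 0.13 ± 0.10 (edgeR adjusted p = 0.419).

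The remaining paralogs were low. Rps27l, which is known as a target of p53, held 14.0, 14.5 and 12.1 CPM (WT), 11.6, 11.96 and 14.5 CPM (Kcnip3 KO), 18.7, 19.4 and 15.1 CPM (5xFAD), and 16.0, 18.0 and 16.8 CPM (Kcnip3 KO-5xFAD). Its libraries labelled 5xFAD or Kcnip3 KO-5xFAD lay above the others by a small step, and the log2 fold change of 5xFAD against WT was 0.38 ± 0.14 (edgeR adjusted p = 0.124). Rpl36al held 23.9, 29.1 and 22.7 CPM (WT) and 29.5, 41.3 and 35.4 CPM (5xFAD), a log2 fold change of 0.49 ± 0.15 (edgeR adjusted p = 0.0771). Kcnip3 KO libraries of Rpl36al, at 23.0, 27.2 and 32.3 CPM, reached into the range of the Kcnip3 KO-5xFAD libraries, at 29.3, 32.0 and 32.8 CPM. Rpl7l1 was at 39.7, 45.1 and 48.3 CPM (Kcnip3 KO) and 48.9, 45.2 and 43.7 CPM (Kcnip3 KO-5xFAD), which overlapped. For Rps27rt the fitted log2 fold change of 5xFAD against WT, 0.80 ± 0.41, rested on 0.52 to 1.56 CPM and did not pass the test (edgeR adjusted p = 0.236).

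The number of members that passed depended on single libraries, while their direction did not, with 81 or 82 of 83 positive in each of these fits. Leaving out WT 1, WT 3, 5xFAD 2 or 5xFAD 3 left 0 members called, with 71 to 78 at an unadjusted p under 0.05, and leaving out 5xFAD 1 raised the count to 75. Without WT 2 it was 23, without Kcnip3 KO-5xFAD 1 it was 28 and without Kcnip3 KO-5xFAD 3 it was 17. Without both libraries that went against their labels in Thy1, WT 3 and Kcnip3 KO-5xFAD 2, 1 member was called (Rps9), 76 had an unadjusted p under 0.05 and the median log2 fold change was 0.42. Without 5xFAD 2 as well, 0 were called, 54 had an unadjusted p under 0.05 and the median was 0.29. The DESeq2 Wald test called 73 members higher and 0 lower. For DESeq2 and for the fits with libraries left out, the shares of all genes are not given here. The 1.91% called higher and 25.3% under 0.05 belong to edgeR's fit of all 12 libraries.

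**Figure D3:**
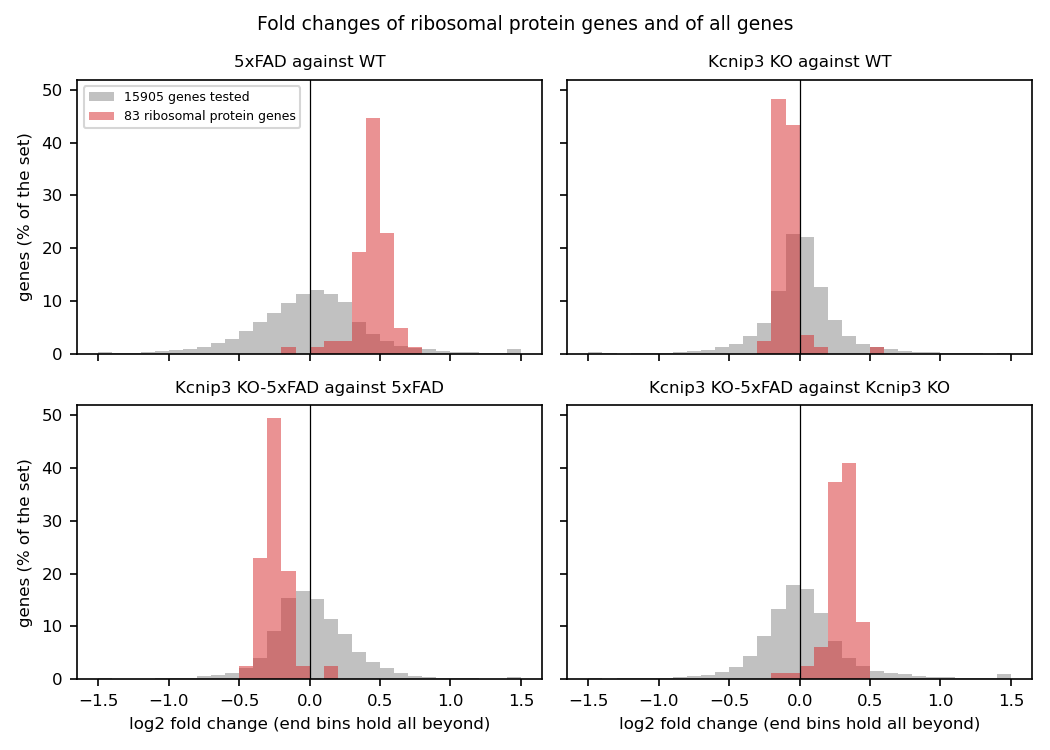
Log2 fold changes of the 83 ribosomal protein genes (red) and of all 15905 genes tested (grey) in 4 comparisons, as the percent of each set in bins of 0.1. The members form a narrow peak whose median is 0.45 in 5xFAD against WT, -0.10 in Kcnip3 KO against WT, -0.24 in Kcnip3 KO-5xFAD against 5xFAD and 0.30 in Kcnip3 KO-5xFAD against Kcnip3 KO.

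In Kcnip3 KO against WT no member passed the test, with 0 called higher and 0 lower by edgeR's quasi-likelihood test and by DESeq2, against 0.0251% of all genes called in each direction. The members leaned low, with 78 of 83 at a negative fold change and a median log2 fold change of -0.10, against 0.00 over all genes tested. Only 1 had an unadjusted p under 0.05, against 4.51% of all genes. This was Rpl21, which held 395, 367 and 466 CPM (Kcnip3 KO), all below the WT libraries, a log2 fold change of -0.26 ± 0.12 (edgeR adjusted p = 0.999). The next by p were Rpl5, which with a small ribosomal RNA and Rpl11 forms a particle that binds Mdm2, and Rpl36a. Rpl5 held 271, 287 and 298 CPM (Kcnip3 KO) and 319.7, 326 and 325 CPM (WT), with no overlap (log2 fold change -0.18 ± 0.09, edgeR adjusted p = 0.999). Rpl36a held 100.5, 117 and 109.8 CPM (Kcnip3 KO) and 123, 132 and 122 CPM (WT), with no overlap (log2 fold change -0.21 ± 0.11, edgeR adjusted p = 0.999). Kcnip3 KO libraries lay wholly below WT libraries in 16 members, against 4.89% of all genes, and wholly above them in 0, against 4.58%. The members' median was -0.13 without WT 3 and Kcnip3 KO-5xFAD 2, and also -0.13 without Kcnip3 KO 3.

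Kcnip3 KO-5xFAD against 5xFAD gave lower values for most members, in a comparison that shares the 5xFAD libraries with 5xFAD against WT. No member was called in either direction by edgeR's quasi-likelihood test or by DESeq2, against 0.0377% of all genes called lower and 0.0314% called higher, while 81 of 83 had a negative fold change and 45 an unadjusted p under 0.05, against 10.4% of all genes. The median log2 fold change was -0.24, or 0.844-fold, against 0.00 over all genes. In 40 members every Kcnip3 KO-5xFAD library lay below every 5xFAD library, against 7.29% of all genes, and in 0 members every one lay above, against 9.05%. The smallest p was that of Rps9, whose libraries are given above, with a log2 fold change of -0.31 ± 0.09 (unadjusted p = 0.00402, edgeR adjusted p = 0.426). Rpl35 had -0.35 ± 0.11 and Rpl28 -0.45 ± 0.14, each with an edgeR adjusted p of 0.426. Rpl28 held 208, 313 and 235 CPM (5xFAD) and 189, 196 and 169 CPM (Kcnip3 KO-5xFAD), and 5xFAD 2 stood far above the rest. Without 5xFAD 2 the members' median was -0.12 and 6 had an unadjusted p under 0.05. That count was 9 without Kcnip3 KO-5xFAD 3, 21 without Kcnip3 KO-5xFAD 1 and 69 without 5xFAD 1. Without WT 3 and Kcnip3 KO-5xFAD 2 it was 31, with a median of -0.27. The shares of all genes in these fits with libraries left out are not given here.

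Kcnip3 KO-5xFAD against Kcnip3 KO gave the transgene comparison in libraries labelled Kcnip3 knockout. No member was called by edgeR's quasi-likelihood test, and no gene of the whole table was (0% of all genes), but 81 of 83 members were higher and 65 had an unadjusted p under 0.05, against 10.4% of all genes. That count was 26 without Kcnip3 KO 1, 38 without Kcnip3 KO-5xFAD 2, 41 without Kcnip3 KO-5xFAD 1 and 60 without Kcnip3 KO 3. Without WT 3 and Kcnip3 KO-5xFAD 2 it was 37, with a median of 0.27, and without Kcnip3 KO 3 the median was 0.34. DESeq2 called 7 members higher. The shares of all genes in DESeq2 and in these fits with libraries left out are not given here. In edgeR's fit of all libraries the median log2 fold change was 0.30, or 1.23-fold, against 0.00 over all genes. In 72 members all Kcnip3 KO-5xFAD libraries lay above all Kcnip3 KO libraries, against 8.37% of all genes, and in 0 members all lay below, against 7.25%. Rps27 held 159, 167 and 176 CPM (Kcnip3 KO) and 219, 235 and 219.7 CPM (Kcnip3 KO-5xFAD), with no overlap and a log2 fold change of 0.42 ± 0.10 (unadjusted p = 0.000856, edgeR adjusted p = 0.251). Rpl10, which joins the large subunit late in its maturation, held 324, 313 and 351 CPM (Kcnip3 KO) and 456, 439.6 and 428 CPM (Kcnip3 KO-5xFAD), a log2 fold change of 0.42 ± 0.10 (edgeR adjusted p = 0.251). Rps4x, whose libraries are given above, had a log2 fold change of 0.39 ± 0.10 (edgeR adjusted p = 0.251).

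By value the transgene comparison was larger between 5xFAD and WT than on the Kcnip3 knockout, at a median of 0.45 against 0.30, but the difference was not resolved. In the interaction, which is the transgene difference on the Kcnip3 knockout minus that on the WT background, edgeR's quasi-likelihood test and DESeq2 called 0 members, and the share of all genes called was 0%. The median log2 interaction was -0.14, against -0.01 over all genes, with 77 of 83 members negative. A single member, Rpl21, had an unadjusted p under 0.05, against 5.26% of all genes, with an edgeR adjusted p of 0.853, and its interaction was positive, at 0.40 ± 0.17. Rpl21 was the member in which Kcnip3 KO libraries were low and Kcnip3 KO-5xFAD libraries, at 572, 597 and 544 CPM, were high. Without 5xFAD 2 the members' median interaction was -0.01, without WT 3 and Kcnip3 KO-5xFAD 2 it was -0.14, and without Kcnip3 KO 3 it was -0.12.

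Other genes of translation were taken from lists. Fau and Rack1, whose proteins belong to the cytosolic ribosome but whose symbols the rule misses, rose in 5xFAD against WT. Fau, a ubiquitin-like protein fused to a small-subunit protein, held 205, 231 and 209 CPM (WT), 177, 193 and 203 CPM (Kcnip3 KO), 299.7, 381 and 310.5 CPM (5xFAD), and 247, 248 and 229 CPM (Kcnip3 KO-5xFAD). Its log2 fold change of 5xFAD against WT was 0.62 ± 0.10 (edgeR adjusted p = 0.0181). Fau ran as the members did, with its highest level in 5xFAD 2. Rack1, a scaffold on the small subunit, held 317, 332 and 303 CPM (WT) and 382, 455 and 410.1 CPM (5xFAD), a log2 fold change of 0.39 ± 0.09 (edgeR adjusted p = 0.0395). Rack1 stood at 294, 314 and 339 CPM (Kcnip3 KO) and 376, 362 and 374 CPM (Kcnip3 KO-5xFAD), again with no overlap.

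All 8 elongation factors had a positive fold change in 5xFAD against WT, with a median of 0.29. Of them 3 rose, against 1.91% of all genes that rose and 1.62% that fell. These were Eef1a1, which brings aminoacyl-tRNA to the ribosome (log2 fold change 0.43 ± 0.10, edgeR adjusted p = 0.0430), and Eef1d and Eef1g, subunits of its exchange factor (0.38 ± 0.09 and 0.35 ± 0.09, edgeR adjusted p = 0.0406 and 0.0450). Of 31 initiation factors and poly(A) binding proteins 0 rose and 1 fell, Eif1ax, which helps to find the start codon (-0.44 ± 0.11, edgeR adjusted p = 0.0421). The list's median was 0.01. Of 31 genes of ribosome biogenesis 0 were called by edgeR or DESeq2, and the median was 0.06. In edgeR 5 of them had an unadjusted p under 0.05, against 25.3% of all genes. Among them Nhp2 and Nop10, proteins of the particles that modify ribosomal RNA, had log2 fold changes of 0.36 and 0.31 (edgeR adjusted p = 0.122 and 0.124). Over these 4 lists (73 genes) edgeR called 0 genes in Kcnip3 KO against WT, in Kcnip3 KO-5xFAD against 5xFAD, in Kcnip3 KO-5xFAD against Kcnip3 KO and in the interaction. At an unadjusted p under 0.05 edgeR gave 2, 12, 11 and 2 of the 73 genes in that order. The shares of all genes tested were 4.51%, 10.4%, 10.4% and 5.26%. DESeq2 called Fau lower in Kcnip3 KO-5xFAD than in 5xFAD (log2 fold change -0.46, DESeq2 adjusted p = 0.0312) and 0 of the 73 genes in the other 3. In 5xFAD against WT DESeq2 called 7 of the 73 higher and 5 lower, all 5 of them initiation factors. The shares of all genes called by DESeq2 are not given here.

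The non-members whose course over the 12 libraries was most like the mean of the members were Cox7a2l (Pearson r 0.984), Eef1g (0.979), Selenow (0.975), Fau (0.975) and Sod1 (0.975). They code for a factor of respiratory supercomplexes, an elongation factor subunit, a selenoprotein, the fusion protein above and superoxide dismutase. Their principal transcripts are 641 to 1864 bases long, so they are short like the members.

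Other short transcripts followed the same course over the libraries. For each library the mean log2 deviation from the gene means was taken over the 83 members and over 1276 other protein-coding genes in the shortest quartile of length (under 1992 bases) and the highest quartile of GC (over 55.4%). Over 12 libraries these measures had a Pearson r of 0.942 (permutation p = 1e-05, the smallest the 100000 permutations can give, adjusted over 6 relations 3e-05) and a Spearman rho of 0.930 (permutation p = 9e-05, adjusted 0.00021). Without 5xFAD 2 and Kcnip3 KO 1, which lay farthest from the median, r was 0.874 over 10 libraries. Within genotypes, as deviations from the group mean, r was 0.831 (permutation p = 0.00041, adjusted 0.000492). Deviations from a group mean are tied within each genotype and are not 12 independent values, so that permutation p can be too small. The permutation over 12 libraries also treats all genotypes as exchangeable, although both measures differed between 5xFAD and WT. The members are mostly of middle GC, and for 1754 other short genes of middle GC, a set added after the values were seen, r was 0.968 and within genotypes 0.848.

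Short genes with the lowest quartile of GC (506 genes) showed no such relation, with r of 0.477 (permutation p = 0.116) and, within genotypes, -0.05 (permutation p = 0.871). Long, GC-poor genes (1281 genes, over 4594 bases and under 46.0% GC) ran opposite to the members, with r of -0.918 and within genotypes -0.939. The 78 tested mitochondrial ribosomal protein genes, whose products work in another compartment, had r of 0.930, and 87 genes of the nuclear-coded respiratory chain 0.908. The library extremes were shared, since 5xFAD 2 was highest in the members (0.52), in short GC-rich genes (0.28) and in mitochondrial ribosomal proteins (0.29), and lowest in long GC-poor genes (-0.42).

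**Figure D4:**
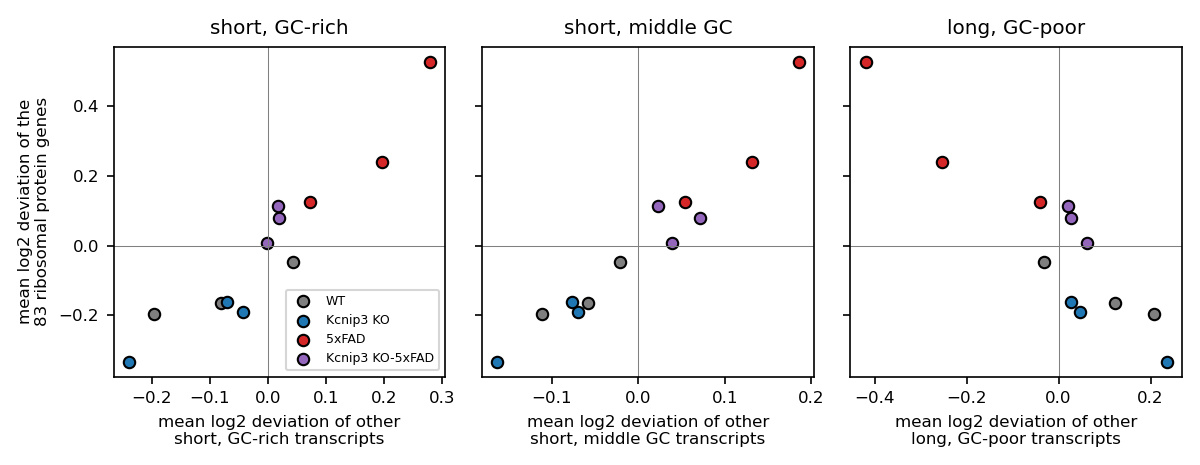
Mean log2 deviation of the 83 ribosomal protein genes in each of 12 libraries (y) against that of other short GC-rich, short middle-GC and long GC-poor transcripts (x), coloured by genotype. The members rise with both sets of short transcripts (r of 0.942 and 0.968) and fall with long GC-poor ones (r of -0.918).

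The same sets differed between 5xFAD and WT. Of all genes tested, edgeR called 1.91% higher and 1.62% lower, and 25.3% had an unadjusted p under 0.05. Short GC-rich genes had a median log2 fold change of 0.27 and 54 of 1276 rose, short middle-GC genes had 0.19 with 63 of 1754, and long GC-poor genes had -0.31 with 97 of 1281 lower. Mitochondrial ribosomal proteins had a median of 0.21, with 0 of 78 called by edgeR, 29 at an unadjusted p under 0.05 and 2 called by DESeq2, and respiratory chain genes had 0.31, with 4 of 87 called higher. The members' median of 0.45 was the largest of these sets. With an offset per library for the trend on transcript length and GC, 10 members rose and 0 fell in 5xFAD against WT, against 0.503% of all genes that rose, and the members' median log2 fold change was 0.23, with 80 of 83 positive and 57 at an unadjusted p under 0.05. Of these 10, 9 were among the 46, and Rpl5 was added. They were Rps4x, Rps16, Rpl5, Rps20, Rpl37a, Rps24, Rpl7, Rpl27a, Rpl23 and Rps23. Without WT 3 and Kcnip3 KO-5xFAD 2 the offset left 1 member called and a median of 0.25.

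After the offset the members' mean log2 deviation was still higher in each of the 6 libraries labelled 5xFAD or Kcnip3 KO-5xFAD, at 0.01 to 0.27, than in each of the 6 labelled WT or Kcnip3 KO, at -0.19 to -0.05. The median log2 fold change with the offset was 0.18 in Kcnip3 KO-5xFAD against Kcnip3 KO and -0.12 in Kcnip3 KO-5xFAD against 5xFAD. For single genes the offset depends on the annotated transcript, and the log2 fold change of Rps20, with a principal transcript of 3706 bases, went from 0.46 to 0.79. The stalk gene Rplp1, short and GC-rich (499 bases, 57.3% GC), went from 0.47 to 0.06.

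**Figure D5:**
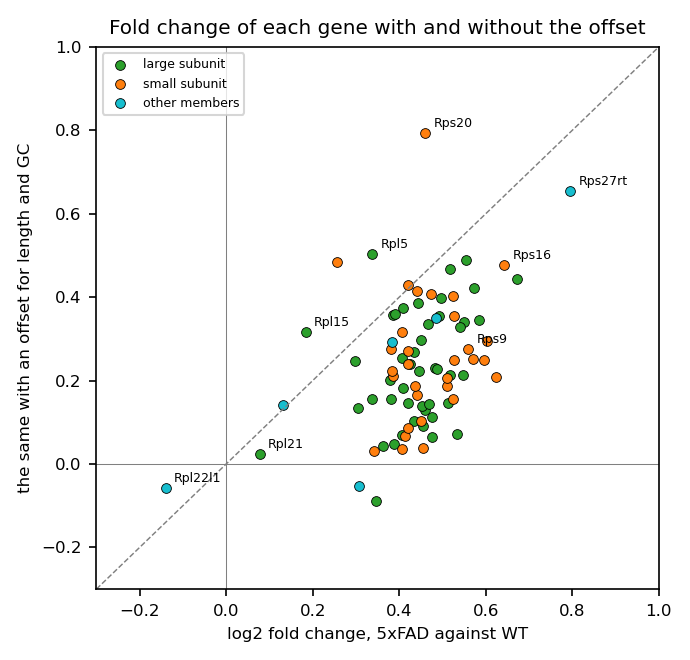
Log2 fold change of 5xFAD against WT for each of the 83 genes without (x) and with (y) the offset for transcript length and GC, with equal values on the dashed line. Most genes lie below the line and above 0, with medians of 0.45 and 0.23, and Rps20 lies farthest above the line.

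Among the 83 members the fold change of 5xFAD against WT was related to length and GC content. Its Pearson r was -0.26 with the log2 of transcript length and 0.32 with GC content, against -0.27 and 0.34 over 15898 tested genes with a listed transcript. Spearman's rho was -0.20 and 0.28 in the members, against -0.36 and 0.43 over all those genes. With the share of windows found in other genes r was 0.15 and rho 0.09. These are correlations across genes, which are not independent replicates. The 34 members with over 50% of shared windows had a median log2 fold change of 0.44 and 19 of them rose, and the other 49 had a median of 0.45 and 27 rose. The median difference was thus about the same on both sides of 50% of shared windows. That share is not a count of copies, and the part of shared sequence in the difference was not tested.

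Markers of some cell types also differed between 5xFAD and WT. Over all genes tested, edgeR called 1.91% higher and 1.62% lower, and 25.3% had an unadjusted p under 0.05. At an unadjusted p under 0.05 edgeR gave 0 of 5 endothelial, 0 of 6 choroid plexus, 0 of 5 mural and fibroblast and 0 of 4 blood markers. It gave 3 of 3 markers of oligodendrocyte precursors, 2 of them higher, and 1 of 3 of ependyma, with 0 called in either list. Of 8 microglial markers 7 rose in 5xFAD against WT, and their summed level was 953 to 1149 CPM (5xFAD), 365 to 555 CPM (WT), 369 to 418 CPM (Kcnip3 KO) and 445 to 984 CPM (Kcnip3 KO-5xFAD). The 5 markers of plaque-associated microglia summed to 433 to 707 CPM (5xFAD) and 53.1 to 185 CPM (WT), with Cst7 at 0 in 2 libraries and Itgax at 0 in 1. All 5 were higher with an unadjusted p under 0.05, and 0 were called. Astrocyte markers (6 genes) summed to 4767 to 5212 CPM (5xFAD) and 2774 to 3525 CPM (WT), with 0 called and 3 at an unadjusted p under 0.05. Only 3 of the 6 were higher, with a median log2 fold change of 0.13, and Gfap, which reactive astrocytes raise, stood at 2189, 2719 and 2360.4 CPM (5xFAD) and 427, 375 and 896 CPM (WT) (edgeR adjusted p = 0.0745). Oligodendrocyte markers (6 genes) summed to 5780 to 8029 CPM (5xFAD) and 3390 to 5661 CPM (WT), which did not overlap, with 6 of 6 higher, 0 called, 5 at an unadjusted p under 0.05 and a median of 0.57. In Kcnip3 KO they summed to 4478 to 8619 CPM. Markers of hippocampal neurons (6 genes) summed to 441 to 660 CPM (5xFAD) and 320 to 467 CPM (WT), which overlapped, with 0 called, 3 at an unadjusted p under 0.05 and a median of 0.84. Neuronal markers (8 genes) overlapped, at 5769 to 6853 CPM (5xFAD) and 6167 to 6695 CPM (WT), with 1 called, Snap25, which was lower. Of these 8 markers 3 were higher and 5 lower, and 4 had an unadjusted p under 0.05. Choroid plexus markers (6 genes) spread most within groups, at 222 to 8983 CPM (5xFAD) and 103 to 3881 CPM (WT). In the library labelled Kcnip3 KO-5xFAD 2, where Trem2 was at 26.2 CPM, the members' sum was 27352 CPM. In the library labelled WT 3, where Trem2 was at 70.1 CPM, the sum was 22072 CPM. These are single libraries whose labels Thy1 and Trem2 do not bear out. The part of these cells in the members' levels was not tested.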

How the data were processed

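Per the labels' protocols, the 12 libraries of hippocampal RNA were prepared with a TruSeq mRNA kit. Mouse build mm10, HISAT2 2.1.0, FastQC 0.11.9, edgeR 3.38.4, R 4.2.1 and featureCounts are listed in the submitters' processing notes. Not given in the sources used here are the strand setting, annotation release and featureCounts version. The authors deposited raw whole-number counts for 55385 Ensembl gene IDs, with 7664407 to 11310714 counts a library. The authors also deposited log2 TPM values, with no word on the gene lengths behind them, and these served only as an alternative. Depth limits the precision of genes of few counts, such as Rps27rt.

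Symbols, positions, transcript lengths and GC content came from GENCODE M21 (GRCm38), which held 55144 of the IDs. The principal transcript stood for each gene. edgeR's quasi-likelihood test (edgeR 4.0.16, R 4.3.3, robust) was fitted on the counts of all 12 libraries with 1 coefficient per genotype, TMM scaling and the filterByExpr filter. It tested 15905 genes, with Benjamini-Hochberg adjustment over all of them, a threshold of 0.05 and a common biological coefficient of variation of 0.144. CPM in the text are TMM-scaled, except in the rule on the members, which used CPM of all counts. The transgene comparison was made on each Kcnip3 background, the knockout comparison in libraries labelled with and without the transgenes, and the interaction tested the difference between the transgene comparisons. Several of these contrasts share libraries. Sums over members were compared with exact two-sided permutation tests. Relations across libraries used 100000 permutations (scipy 1.17.1).

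The genes named were chosen by a rule: the stalk genes, Rpsa and the paralogs, the highest and lowest by level per length, up to 6 called members with the smallest p in each direction or else 3 by unadjusted p, the nearest to and farthest from the common course, and the 5 genes most like it. The members, lists and rules were chosen with earlier results of these data known. Alternatives were other scalings, filters, tools (DESeq2 1.42.0, limma 3.58.1), the replicate block, an offset for length and GC (lowess with a span of 0.3) and left-out libraries. The fit was tested on simulated data. Replicate libraries differed by far more than counting noise (chi-square per degree of freedom of 8.18 to 19.7), so no pair within a genotype looked like a repeated deposit. Nothing in the labels says that a replicate number pairs libraries, so the main fit did not use it. Some items are not reported here.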

Additional observations from a re-analysis of the deposited data

How the results depend on the processing

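In 5xFAD against WT, 46 members were called higher. The shares of all genes called under the alternatives below are not given here, apart from that with the offset, which is given above. The count was 73 without a filter on low counts and 73 with DESeq2, 15 with limma on the deposited log2 TPM, 7 with only the 2 groups in the fit, and 10 with the length and GC offset. With the replicate block it was 72, and with the block and the offset together 11. It ranged from 0 to 75 when 1 library was left out. Without WT 3 and Kcnip3 KO-5xFAD 2 it was 1, and with the offset as well, an alternative chosen after seeing the data, also 1. Without those libraries and 5xFAD 2, likewise added, it was 0. The cause was not tested. In Kcnip3 KO-5xFAD against 5xFAD 1 member (Rpl28) was called lower without a filter, and in Kcnip3 KO-5xFAD against Kcnip3 KO the 0 called higher became 8 without a filter, 7 with DESeq2 and 1 without WT 3, Kcnip3 KO-5xFAD 2 and 5xFAD 2. The other alternatives left the counts of called members within 1.5 times. Leaving out 1 library moved the members' median log2 fold change between 0.31 and 0.53 in 5xFAD against WT, -0.13 and -0.05 in Kcnip3 KO against WT, -0.33 and -0.12 in Kcnip3 KO-5xFAD against 5xFAD, 0.25 and 0.34 in Kcnip3 KO-5xFAD against Kcnip3 KO, and -0.23 and -0.01 in the interaction. No called value reversed under any alternative run. The relation with short GC-rich transcripts kept an r of 0.912 to 0.954 when 1 library was left out. Same-numbered libraries of different genotypes did not deviate together: over 18 pairs r ran from -0.32 to 0.25, with 6 over 0.1, and over 36 pairs of other numbers from -0.38 to 0.29. These r values cannot tell whether same-numbered libraries shared a litter or a day, and the labels do not say. The replicate block thus pairs libraries on the number alone. Counts cannot separate a member from near-identical pseudogenes, and 3 libraries a group cannot bring the permutation test of a sum below 0.1.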
